A study of Mus musculus with 2 samples.

Results

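The creatine genes considered here are 5 genes, Gatm, Gamt, Slc6a8, Ckb and Ckmt1, among 27998 genes in the count table of adult mouse oviduct epithelium and 53573 in that of postnatal day 4 (P4). They were taken by name for their place in the creatine pathway, after earlier results of these data were known. Ckb and Gatm were picked with their levels by cluster in view, so the levels are a description and no test was made on them. Creatine stores and moves the energy of ATP: Gatm makes the precursor guanidinoacetate from arginine and glycine, Gamt methylates it to creatine, and Slc6a8 carries creatine into cells with sodium and chloride. Creatine kinases then pass a phosphate group between ATP and creatine, Ckb in the cytosol and Ckmt1 in mitochondria, so that creatine phosphate can reach places of high ATP use such as sperm flagella. Ckb is also known as the estrogen-induced protein of the rat uterus.

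The cells are oviduct epithelium of C57BL/6 mice, taken apart with enzymes, sorted for epithelium by Epcam and CD45 staining and profiled with 10x Chromium 3' V2 libraries. There was 1 adult library, made at estrus, and 1 P4 library. The number of animals and the age of the adults are not given in the sources used here. With 1 library per age, intervals cover counting error only, and age cannot be told apart from library, estrous stage, depth or annotation. The adult table gave 406 distinct cells with 1401641 unique molecular identifiers (UMI, counted RNA molecules), with a median of 3232 UMI per cell (502 to 16207). The P4 table gave 263 cells with 2123202 UMI, with a median of 7585 (1331 to 23372). Of the adult barcodes, 401 are listed under both column prefixes and each was counted once; 0 barcodes were shared between adult and P4. Levels below are UMI of a gene per 10000 UMI of the cells, with 95% Poisson intervals in brackets. They come from the 3' ends of transcripts and were not compared between genes.

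The authors' cluster numbers were checked against markers. Adult clusters 0 (130 cells) and 4 (31 cells) had summed levels of the 9 secretory markers of 92.0 and 351.6, and of the 15 multiciliated markers of 4.06 and 5.24. Clusters 1 (183 cells) and 3 (37 cells) had multiciliated sums of 172.4 and 121.3 and secretory sums of 11.1 and 31.1. They are called secretory-like (0 and 4) and multiciliated-like (1 and 3). Muc16, a secretory marker, had 0 UMI in each of these 4 clusters. Cluster 5 (25 cells) stays a number, since 6 of its 10 leading genes are smooth muscle markers, and so do P4 clusters 0 (168 cells) and 1 (95 cells). Of the 25 cells of cluster 5, 18 had at most 4 smooth muscle UMI each, with secretory markers summed to 97.5. All 8 epithelial markers had UMI in both libraries, and Ptprc, which encodes CD45, had 0 UMI in both.

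The promoters of the 2 members with the most UMI are shown because they are the members whose levels split the adult cell classes. Both are the 250 bases before the RefSeq start (GRCm38.p6), read on the gene's strand, with capitals at matches to TATAAA or CCAAT on either strand (ATTGG is CCAAT on the other strand). Gatm lies on the minus strand with its window at chr2:122611278-122611527, and Ckb on the minus strand with its window at chr12:111672339-111672588.
Gatm: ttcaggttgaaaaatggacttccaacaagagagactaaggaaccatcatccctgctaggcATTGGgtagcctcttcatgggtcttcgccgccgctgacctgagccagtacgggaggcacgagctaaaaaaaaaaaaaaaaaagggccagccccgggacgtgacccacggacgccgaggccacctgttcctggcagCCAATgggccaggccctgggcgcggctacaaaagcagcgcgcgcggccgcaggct
Ckb: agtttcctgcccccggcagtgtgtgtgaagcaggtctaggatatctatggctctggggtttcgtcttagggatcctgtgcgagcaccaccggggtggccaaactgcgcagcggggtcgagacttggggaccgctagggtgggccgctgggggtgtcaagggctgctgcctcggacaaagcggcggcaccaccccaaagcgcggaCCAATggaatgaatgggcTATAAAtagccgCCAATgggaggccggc
The Ckb window holds TATAAA with its first base 28 bases before the start and CCAAT 46 and 16 bases before it. The Gatm window holds no TATAAA, and CCAAT at 55 bases and, on the other strand, at 190 bases before the start. TATAAA occurs in 12.4% and CCAAT in 33.8% of 32851 mouse promoter windows of that length. GTTGCC, a half-site of the RFX factors of cilium genes (10.4% of windows), was searched on both strands and occurs in neither window. RefSeq promoters were on hand for 4 of the 5 members, not for Slc6a8.

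Gatm, the gene of the first step of creatine synthesis (chromosome 2, 122594467 to 122611303, minus strand, GENCODE M21 on GRCm38), was found mainly in adult secretory-like cells. Its level was 7.86 (7.11 to 8.66) in cluster 0 and 5.24 (3.58 to 7.39) in cluster 4, against 0.439 (0.287 to 0.643) in cluster 1 and 0.0812 in cluster 3 (1 UMI). Among cells, 84 of 130 cells of cluster 0 (64.6%) and 14 of 31 of cluster 4 had a UMI, against 9 of 183 in cluster 1 and 1 of 37 in cluster 3. Cells of cluster 0 held 0 to 36 Gatm UMI with a median of 2, and those of cluster 4 held 0 to 8 with a median of 0. The classes overlap at 0 and at low counts. In cluster 0 the 84 cells with a Gatm UMI had a median of 4663.5 UMI in all, and the 46 without one 1337.5.

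Pooled over the classes, Gatm stood at 7.58 in secretory-like cells and 0.377 in multiciliated-like cells. That is 16.1-fold higher with a pseudocount of 0.1 (log2 fold 4.01; ratio without pseudocount 20.1, interval 13.6 to 30.8). In this comparison 11.1% of 5184 measured genes (a UMI in at least 10% of cells on either side) were at least 2-fold higher and 24.2% at least 2-fold lower; Gatm had the 3rd highest and Ckb the 11th lowest fold. Of the 5 members 2 were measured, 1 higher and 1 lower, and nothing is read from this count because it chose them. Within the secretory-like cells Gatm was lower in cluster 4 than in cluster 0 (log2 fold −0.58, ratio interval 0.450 to 0.956). This order did not hold when cells were thinned to 1000 UMI, where the level was 10.0 in cluster 4 and 8.21 in cluster 0 (19 UMI in cluster 4 and 92 in cluster 0, log2 fold 0.28 for 4 over 0). In that comparison 8.99% of 4474 measured genes were higher by 2-fold or more and 20.8% lower, and Gatm, the 1 measured member, was within 2-fold.

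Few multiciliated-like cells held Gatm, and those of cluster 1 carried secretory markers. The median secretory marker level was 33.7 in the 9 cells of cluster 1 with a Gatm UMI (5.05 to 137.7), against 3.34 in the 174 cells without. The median multiciliated marker level was 142.9 in the 9 cells (2.58 to 176.3), against 197.1 in the others. Smooth muscle markers had a median of 2.80 in the 9 cells (0 to 60.5), against 0, and the median depth was 5502 UMI, against 3038. The 1 cell of cluster 3 with a Gatm UMI was not like these, with secretory markers at 6.23, against a median of 22.0 in the 36 cells without, and fibroblast markers at 29.6, against a median of 0. Whether these are mixed droplets was not tested. Without cells that carry markers of the other class or of smooth muscle, an alternative added after the data were seen, the log2 fold of Gatm was 5.57.

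Gamt, which completes creatine synthesis (chromosome 10, 80258151 to 80261012, minus strand), was close to the limit of detection in the adult library, with 10 UMI in 10 cells. Its adult levels were 0.178 in cluster 5 (2 UMI), 0.0780 in cluster 0 (4 UMI), 0.0812 in cluster 3 (1 UMI) and 0.0506 in cluster 1 (3 UMI), with 0 UMI in cluster 4, where 3 counts would be 0.491. No neighbours in this order differed beyond counting error. Of the 10 adult cells with Gamt, 6 also had Gatm, where the product of the 2 shares over all adult cells gives 2.78. Both were found in 2 secretory-like cells (product 2.43) and in 3 multiciliated-like cells (product 0.18). The products take no account of depth. At P4 Gamt had 32 UMI in 28 cells, at 0.226 (0.127 to 0.373) in cluster 1 and 0.116 in cluster 0, and the ratio interval of 0.905 to 4.14 includes 1.

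Slc6a8, the creatine transporter gene (chromosome X, 73673150 to 73682502, plus strand), had 36 UMI in 33 adult cells. Its level was 0.535 in cluster 5 (6 UMI), 0.321 in cluster 1 (19 UMI), 0.244 in cluster 3 (3 UMI) and 0.156 in cluster 0 (8 UMI), with 0 UMI in cluster 4. These intervals overlap, and secretory-like cells (0.139) and multiciliated-like cells (0.307) did not differ beyond counting error (ratio interval 0.175 to 1.06). P4 cells held 9 Slc6a8 UMI in all.

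**Figure D1:**
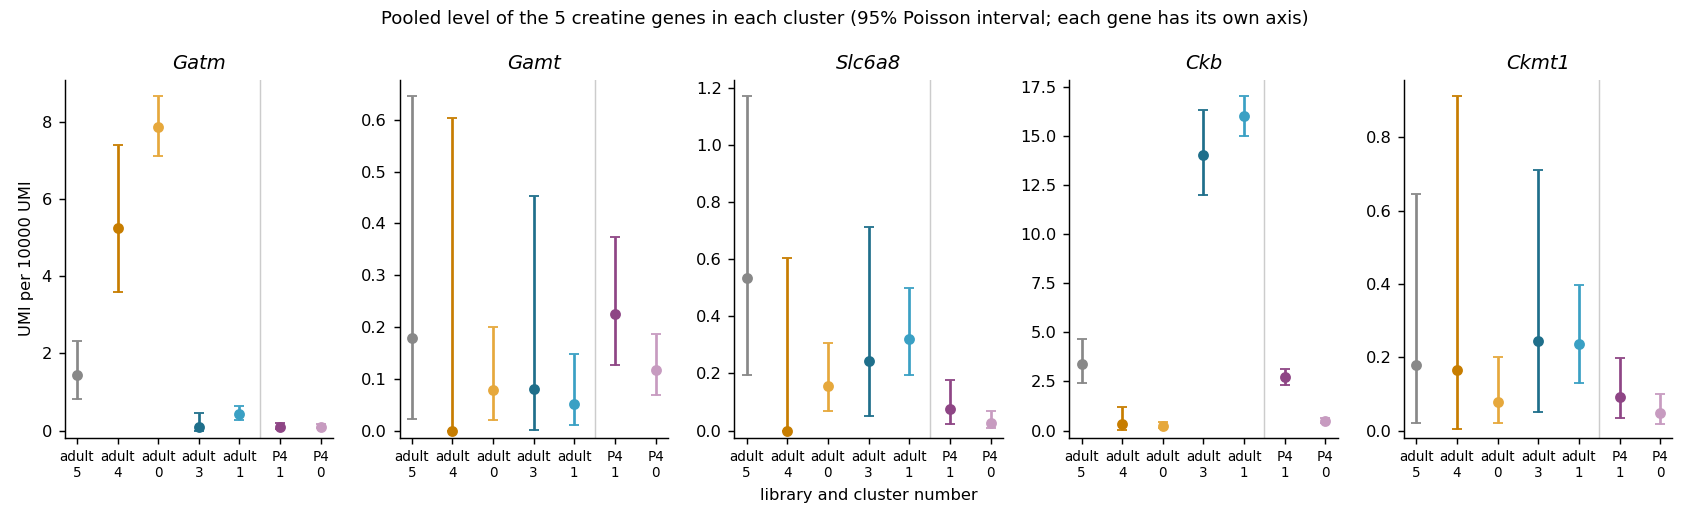
Pooled level (UMI per 10000 UMI, vertical axis, a separate linear scale for each gene) of the 5 creatine genes in the 5 adult and 2 P4 clusters. Points are pooled levels and bars exact 95% Poisson intervals; Gatm is highest in adult clusters 0 and 4 (7.86 and 5.24), Ckb in adult clusters 1 and 3 (16.0 and 14.0), and the intervals of Gamt, Slc6a8 and Ckmt1 overlap between most clusters.

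Ckb, the cytosolic kinase gene (chromosome 12, 111669361 to 111672338, minus strand), had the mirror image of the Gatm pattern in the adult. It stood at 0.253 (0.135 to 0.433) in cluster 0 and 0.327 in cluster 4 (2 UMI), against 16.0 (15.0 to 17.0) in cluster 1 and 14.0 (12.0 to 16.3) in cluster 3. A UMI was found in 12 of 130 and 2 of 31 secretory-like cells of clusters 0 and 4, against 150 of 183 (82.0%) and 27 of 37 (73.0%) multiciliated-like cells of clusters 1 and 3. The most in any cell was 2 UMI in cluster 0, against 32 in cluster 1, where the median cell held 3. Clusters 1 and 3 did not differ beyond counting error (log2 fold −0.19 for 3 over 1, ratio interval 0.743 to 1.03). This depended on the setting. The interval was 0.661 to 0.930 without the 5% of cells with the most UMI. It was 0.690 to 0.981 without the cell with the most Ckb UMI on each side. In that comparison 11.7% of 5483 measured genes were higher by 2-fold or more and 9.06% lower, and Ckb, the 1 measured member, was within 2-fold.

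Over the classes, Ckb was 0.261 in secretory-like cells and 15.7 in multiciliated-like cells, 43.6-fold lower (log2 fold −5.45; ratio of multiciliated-like over secretory-like without pseudocount, interval 36.2 to 107.4). The cells of cluster 1 without a Ckb UMI were not poor in cilium markers: the median level was 191.9 in the 150 cells with a Ckb UMI, against 194.0 in the 33 without. In cluster 3 it was 125.3 in the 27 cells with one, against 144.1 in the 10 without. The median depth in cluster 1 was 3497 UMI in the cells with one and 927 in those without. Ckb had no one order by Foxj1, the master regulator gene of motile cilia. In cluster 1 the 135 cells with a Foxj1 UMI had Ckb at 16.5 (15.4 to 17.6) and the 48 without it at 12.5 (10.0 to 15.4), with median depths of 3584 and 930 UMI. In cluster 3 the 19 cells with a Foxj1 UMI had Ckb at 12.2 (10.0 to 14.8) and the 18 without it at 18.3 (14.2 to 23.3), with median depths of 4830 and 1125 UMI. The 12 Ckb-positive cells of cluster 0 carried a little more multiciliated marker RNA (7.02, against 3.73 in the other 118), and what part of their 13 UMI is free RNA was not tested.

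**Figure D2:**
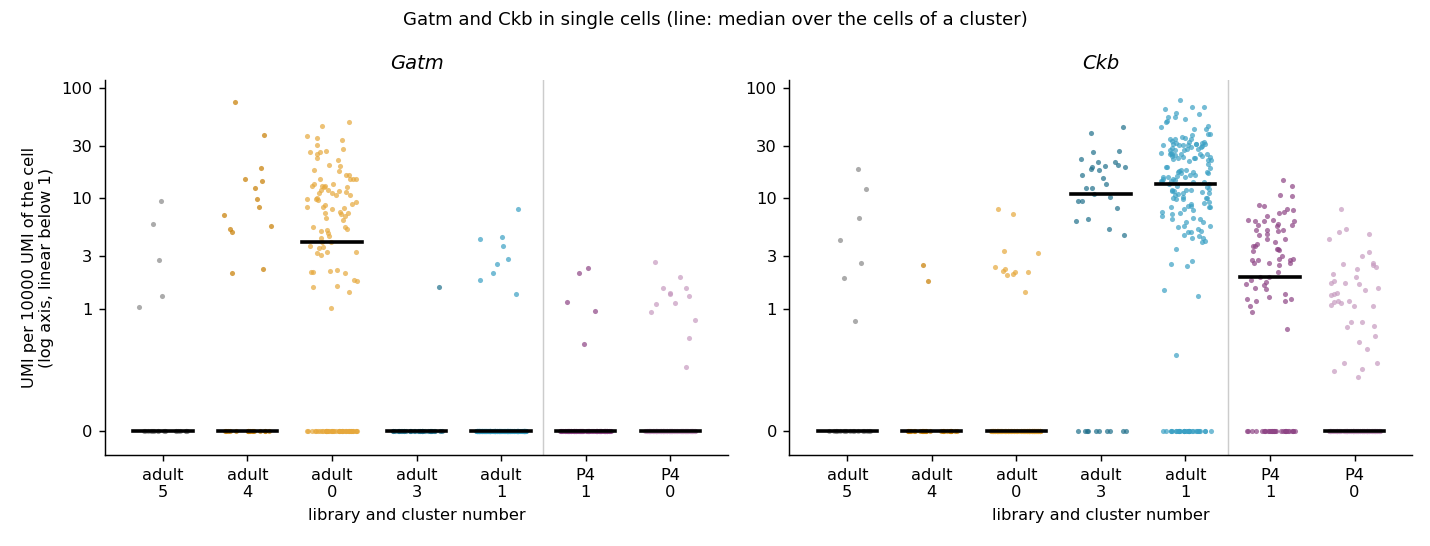
Gatm (left) and Ckb (right) in each cell, as UMI per 10000 UMI of the cell on a log axis that is linear below 1, by library and cluster. Each point is a cell and the black line is the cluster median; the highest Gatm value of adult secretory-like cells is 75.1 and the highest Ckb value of multiciliated-like cells 77.9, while cells at 0 occur in every cluster.

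Ckmt1, the ubiquitous mitochondrial kinase gene (chromosome 2, 121357714 to 121363737, plus strand), had 24 UMI in 21 adult cells. Of these UMI 17 lay in multiciliated-like cells (0.238) and 5 in secretory-like cells (0.0871), and the ratio interval of secretory-like over multiciliated-like, 0.106 to 1.04, includes 1. At P4 it had 13 UMI in 11 cells, of which 4 UMI lay in the 6 cells with the most multiciliated markers. It overlaps Strc on the other strand, which had 0 UMI in both tables. The remaining kinases were nearly absent: Ckm, the muscle type, had 0 adult UMI and 2 at P4, and Ckmt2, the sarcomeric mitochondrial type, 0 in both. At 3 counts the detectable level was 0.0214 in the adult and 0.0141 in the P4 library. The pseudogenes Ckb-ps1 and Ckb-ps2, which could draw Ckb reads, are listed for P4 and had 0 UMI.

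Gatm and Ckb were seldom found in the same adult cell. Of 406 cells, 23 had a UMI of both, where the product of their shares over all cells gives 55.11. Both genes were picked with their levels by cluster in view, so a count below this product follows from that choice. None of the products here takes account of depth. Within a class the count was near the product, at 10 (8.52) in secretory-like and 9 (8.05) in multiciliated-like cells, so within the classes the genes were found together about as often as their shares give. In cells thinned to 1000 UMI, 3 of 322 adult cells had both, where the product gives 22.36. No cell had all 5 members, 2 adult cells had 4, and 108 of 406 adult and 125 of 263 P4 cells had none.

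**Figure D3:**
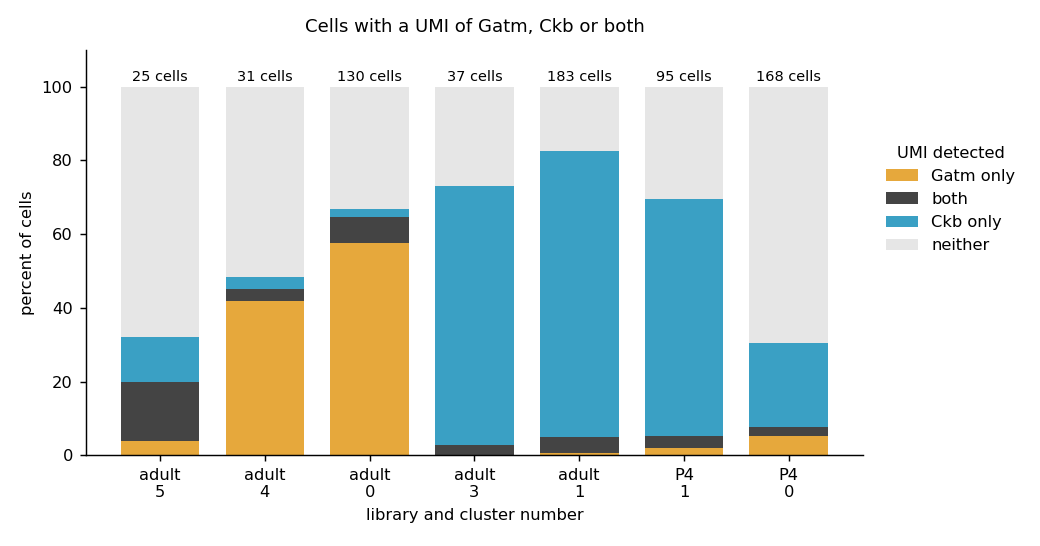
Percent of the cells of each cluster (stacked bars from 0 to 100) with a UMI of Gatm only, of both Gatm and Ckb, of Ckb only or of neither; the number of cells stands above each bar. Cells with Gatm only make up most positive cells of adult clusters 4 and 0. Cells with Ckb only do so in adult clusters 3 and 1 and in P4 clusters 1 and 0.

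Adult cluster 5 had Ckb at 3.39 (38 UMI in 7 of 25 cells) and Gatm at 1.43 (16 UMI in 5 cells). Against cluster 0 its Ckb was 9.87-fold higher (log2 fold 3.30) and its Gatm 5.21-fold lower (log2 fold −2.38), with 14.8% of 5835 measured genes at least 2-fold higher and 8.41% lower. Slc6a8, the 3rd measured member, was 2.48-fold higher with a ratio interval of 0.982 to 11.3. All 38 Ckb UMI lay in 7 cells with 53 to 187 smooth muscle UMI, as 15, 8, 8, 3, 2, 1 and 1, and the other 18 cells had 0. In those 18 cells 3 counts would be 0.555, above the level of cluster 0 (0.253), so a difference from cluster 0 was not detectable. The same 7 cells had multiciliated markers at a median of 5.16 (1.39 to 114.2), against 0 in the other 18 (0 to 6.70), and 33 of the 38 UMI were in 4 cells with a Foxj1 UMI. Of the 16 Gatm UMI 15 lay in 4 of the 7 cells and 1 in the other 18 (0.185, interval 0.00468 to 1.03). The 18 cells had secretory markers at 97.5 (92.0 in cluster 0) and multiciliated markers at 1.30. Their Gatm was thus below that of cluster 0 (7.86), although the sum of their secretory markers was not. The sum hides differences between markers. Over all of cluster 5 against cluster 0, 4 of 8 measured secretory markers (Lcn2, Agr2, Msln and Krt7) were at least 2-fold lower. Of the rest, Wfdc2 was higher and 3 were within 2-fold. The median depth of the 18 cells was 1914.5 UMI. Smooth muscle also expresses Ckb, and which source the UMI came from cannot be told apart here.

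At P4 neither gene had its adult pattern. Gatm was low in both clusters, at 0.0906 (6 UMI) in cluster 1 and 0.103 (15 UMI) in cluster 0, and had at most 2 UMI in any cell. Ckb stood at 2.72 (2.33 to 3.14) in cluster 1 and 0.50 (0.392 to 0.628) in cluster 0, 4.70-fold higher (log2 fold 2.23, ratio interval 4.12 to 7.24). It had a UMI in 64 of 95 cells (67.4%) in cluster 1 and 42 of 168 in cluster 0, with at most 10 and 9 UMI per cell, so the clusters overlap. This was the largest fold of 8721 measured genes, of which 1.41% were at least 2-fold higher and 1.38% lower; the clusters are the authors' own, so whether Ckb was among the genes that formed them is not known here. Of the 2 measured members Ckb was higher and Gamt was within 2-fold (1.51-fold). At an equal 1000 UMI per cell Ckb had a UMI in 24 of 95 cells of cluster 1 and 3 of 168 of cluster 0.

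P4 cluster 1, where Ckb was high, is the cluster with fewer cilium genes. Its multiciliated markers summed to 1.98, against 8.26 in cluster 0, with Foxj1 at least 2-fold lower. In P4 cluster 1 multiciliated markers summed to 1.84 in the Ckb-positive cells, against 2.24 in the rest, and secretory markers to 26.0, against 29.4. In P4 cluster 0 multiciliated markers summed to 12.3 in the 42 Ckb-positive cells, against 6.37 in the 126 others, with medians of 2.29 and 1.82. By Foxj1, Ckb in P4 cluster 0 was 0.615 (0.431 to 0.852) in the 54 cells with a UMI and 0.423 (0.297 to 0.582) in the 114 without, and the intervals overlap. Across P4 cells the gene most opposed to Ckb was Wt1, a transcription factor gene of the urogenital tract (Pearson r −0.344 over 263 cells of 1 library, a description). P4 cells with a Wt1 UMI had Ckb at 0.612 (149 cells) and those without at 2.22 (114 cells). The order was the same inside cluster 1 (1.53 in 31 cells with Wt1, 3.53 in 64 without) and inside cluster 0 (0.386 in 118 with, 0.832 in 50 without), although the cells with Wt1 were deeper in each. In the adult it differed between clusters: Ckb was 16.9 with Wt1 and 13.2 without in cluster 1 (median depths 3811 and 1004 UMI), and 11.6 (8.57 to 15.2) with Wt1 and 15.4 (12.8 to 18.4) without in cluster 3.

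Adult and P4 cells were set side by side on the 26897 genes that both tables list. Over all cells Ckb was 8.52 in the adult and 1.38 at P4 (5.84-fold higher), and Gatm 3.47 in the adult and 0.114 at P4 (16.7-fold higher). Gamt was 0.0726 in the adult and 0.174 at P4, within 2-fold with the pseudocount. Its ratio interval without pseudocount, 0.183 to 0.871, excluded 1, but with the merged table it included 1 (0.231 to 1.14). Of 7283 measured genes 11.5% were at least 2-fold higher in the adult and 10.4% lower; of the 3 measured members 2 were higher. Slc6a8 (0.262 in the adult, 0.0489 at P4) and Ckmt1 (0.174 in the adult, 0.0707 at P4) fell short of the 10% of cells. The level intervals of Slc6a8 did not overlap (0.183 to 0.362 in the adult, 0.0224 to 0.0929 at P4). The ratio interval of Ckmt1, adult over P4, was 1.21 to 5.28. For adult multiciliated-like cells over all P4 cells it was 2.83 to 15.8 for Slc6a8 and 1.57 to 7.67 for Ckmt1. For adult secretory-like cells over all P4 cells the ratio intervals of both genes included 1.

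The age difference of Ckb had another direction in adult secretory-like cells than in multiciliated-like cells. Adult secretory-like cells had Ckb at 0.266, against 1.38 in all P4 cells, 4.03-fold lower in the adult cells. P4 cluster 0 had it at 0.578 (0.453 to 0.727), which is within 2-fold of the adult cells with the pseudocount. The interval of the adult cells (0.149 to 0.439) lies below that of P4 cluster 0. P4 cluster 1, the P4 cluster with more Ckb and given no class here, had it at 3.12, so it was 8.80-fold lower in the adult cells (log2 fold −3.14; interval of P4 over adult without pseudocount 6.93 to 21.4). Adult multiciliated-like cells had it at 15.9, and 6 P4 cells with over 30 multiciliated marker UMI per 10000 at 0.928 (8 UMI in 3 cells, as 5, 2 and 1), 15.6-fold higher in the adult. Foxj1 was 7.70 in the adult and 8.70 in the 6 cells, but it is 1 of the markers that chose them. Its likeness therefore does not show that the groups are matched. The cut of 30 lies below the summed multiciliated level of 163.6 in adult multiciliated-like cells. The 6 cells were singled out by their markers after values were seen. Gatm was 38.3-fold higher in adult secretory-like cells (7.71) than in P4 cluster 1 (0.104, 6 UMI). The adult library holds 220 multiciliated-like cells of 406, so levels over all cells move with that mix.

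**Figure D4:**
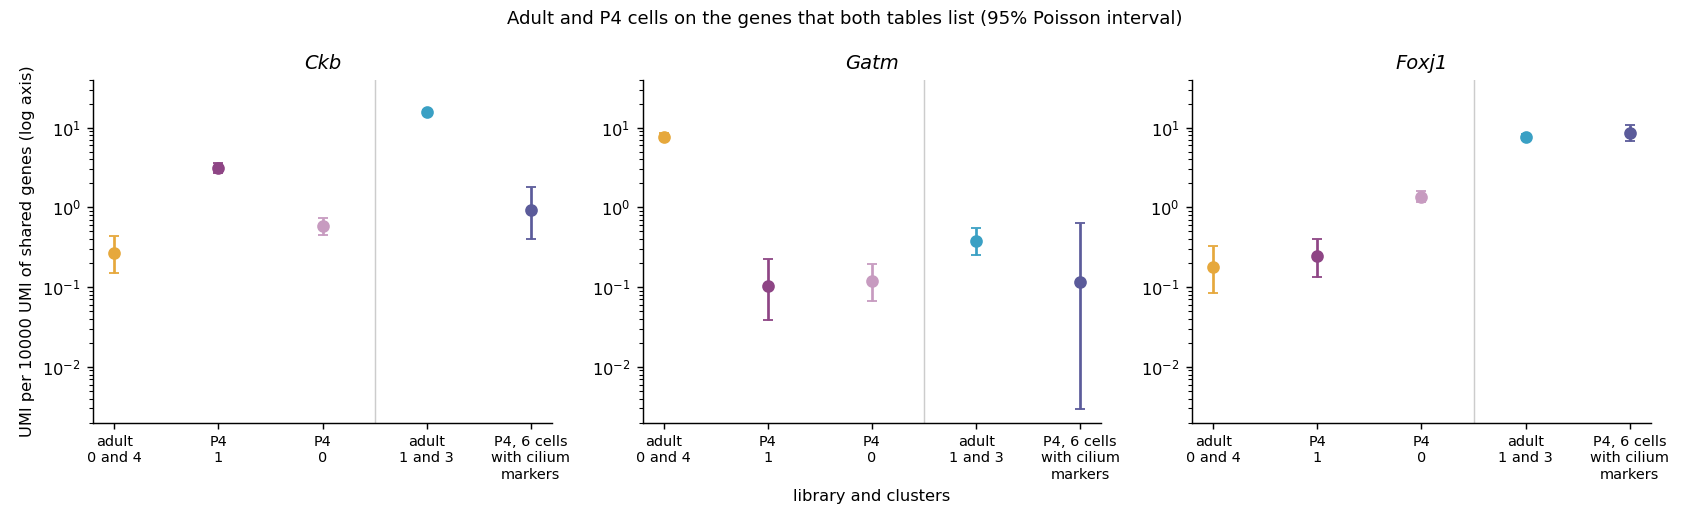
Levels of Ckb, Gatm and Foxj1 (UMI per 10000 UMI of the genes both tables list, log axis, bars are 95% Poisson intervals) in adult and P4 cells by class. Ckb lies below P4 cluster 1 in adult clusters 0 and 4 (0.266 against 3.12). It lies above the 6 P4 cells with cilium markers in adult clusters 1 and 3 (15.9 against 0.928). Foxj1 is 7.70 against 8.70 in these, and it is 1 of the markers that chose the 6 cells. The 6 cells are also part of P4 cluster 0.

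Other genes of phosphate transfer were counted in a list chosen with earlier results known. Of its 20 genes 15 were measured between the adult classes. In the secretory-like class 2 were higher and 7 lower, beside 11.1% higher and 24.2% lower over all measured genes. The remaining 6 differed less than 2-fold (median of the 15 on the log2 scale −0.98, against −0.25 over all measured genes). Adenylate kinases pass phosphate between ATP and AMP. Ak1 had 2 UMI in secretory-like cells (0.0348) and stood at 2.61 in multiciliated-like cells (the inverse ratio has an interval of 20.5 to 623.8). Ak7, a kinase of motile cilia, had 1 UMI in secretory-like cells and a level of 1.54 in multiciliated-like cells (inverse ratio interval 15.5 to 3516.2). Ak8 and Ak9 had 0 UMI in secretory-like cells, and against a floor of 3 counts over the class they were at least 19.0-fold and 9.89-fold lower. Nme5, a nucleoside diphosphate kinase family member of sperm and cilia, was 27.0-fold lower (0.0697 in secretory-like, 4.49 in multiciliated-like cells), Nme7 3.69-fold lower, and Cmpk2, a mitochondrial nucleotide kinase, had 1 UMI in secretory-like and a level of 0.559 in multiciliated-like cells (inverse ratio interval 5.44 to 1298.5). With Ak8 and Ak9 at their bounds the median of the list was also −0.98. The general nucleoside diphosphate kinase genes Nme1 and Nme2 were 2.20-fold and 2.70-fold higher in secretory-like cells.

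**Figure D5:**
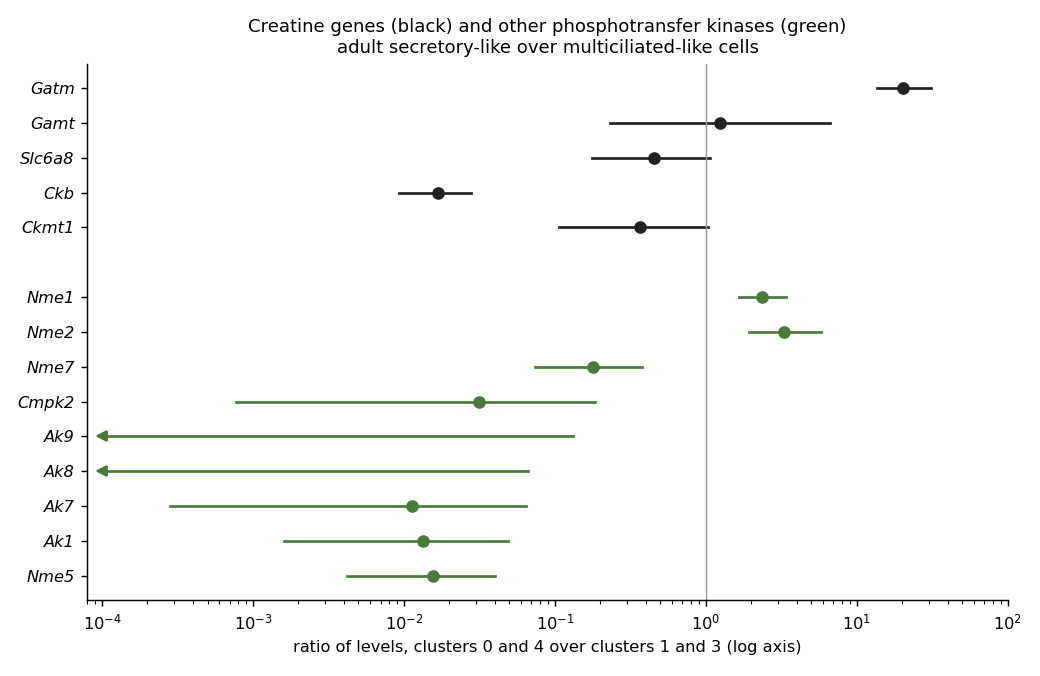
Ratio of the pooled level in adult secretory-like cells (clusters 0 and 4) over multiciliated-like cells (clusters 1 and 3) on a log axis, with exact 95% intervals and no pseudocount, for the 5 creatine genes and the 9 other phosphotransfer kinases at least 2-fold apart. An arrow marks a gene with 0 UMI in secretory-like cells; Gatm lies to the right of 1, Ckb far to the left, and the intervals of Gamt, Slc6a8 and Ckmt1 include 1.

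Most measured genes of arginine and methyl donor metabolism, which feeds creatine synthesis, were within 2-fold between the adult classes. Of 26 such genes 10 were measured. Of these 2 were higher in secretory-like cells and the other 8 differed less than 2-fold (median on the log2 scale −0.06), beside 11.1% higher and 24.2% lower over all measured genes. The 2 were Oat, which links ornithine to proline and glutamate (2.84 in secretory-like, 1.17 in multiciliated-like cells), and Ahcy, which clears the product of methylation reactions such as that of Gamt (0.401, 23 UMI, and 0.0978, 7 UMI). Of 6 measured mitochondrial partners of creatine kinase, 5 were within 2-fold and Vdac3, an outer membrane channel gene, was lower (1.34 in secretory-like, 3.62 in multiciliated-like cells). Slc6a6, the taurine transporter gene and relative of Slc6a8, was the 1 measured gene of 8 other carriers and kinases and was 3.05-fold lower (0.401 in secretory-like, 1.43 in multiciliated-like cells).

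Genes of ion pumps, which use ATP, and of their subunits were also counted, and with few measured nothing is read from the counts. Of 9 measured, 2 were higher (Fxyd3, 2.77-fold, and Atp2b1, 2.07-fold) and 3 lower: the calcium pump gene Atp2a2 was 6.20-fold, Fxyd4 3.30-fold and Atp6v1b2 2.40-fold lower in secretory-like cells, while 11.1% of all measured genes were higher and 24.2% lower. Among 3 measured regulators Esr1, the estrogen receptor gene, was 2.34-fold higher (1.6 in secretory-like and 0.629 in multiciliated-like cells), and Hif1a was 2.51-fold higher. A link of either gene to Ckb was not tested.

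The same lists were counted in the other comparisons. Over all measured genes 1.41% were higher and 1.38% lower in P4 cluster 1 over cluster 0, so most genes of any list lie within 2-fold there. The shares higher and lower were 11.5% and 10.4% in the adult over P4, and 8.99% and 20.8% in adult cluster 4 over 0. They were 11.7% and 9.06% in adult cluster 3 over 1, and 14.8% and 8.41% in adult cluster 5 over 0. In P4 cluster 1 over cluster 0 all 15 measured arginine and methyl donor genes and all 6 mitochondrial partners were within 2-fold, and of 13 measured phosphotransfer kinases Nme5 alone differed (0.121 in cluster 1, 0.541 in cluster 0). Fxyd3 was 2.29-fold higher in P4 cluster 1. In the adult over P4, Ak1, Ak7, Ak8, Nme5 and Guk1 were 2.46-fold to 5.35-fold higher and Nme2, Nme3 and Nme4 were 2.05-fold to 5.68-fold lower, while Ass1, which makes the arginine precursor argininosuccinate, was 5.51-fold higher (1.44 in the adult, 0.179 at P4). Fxyd4 (4.41-fold) and Atp2a2 (3.22-fold) were higher and Atp2b1 (2.99-fold), Pgr (2.54-fold) and Trp53 (2.69-fold) lower in the adult. The other 14 of 15 measured arginine and methyl donor genes were within 2-fold. All 15 multiciliated markers were also higher in the adult and all 6 proliferation markers lower, and their part in these differences was not tested. Between adult clusters 4 and 0, Guk1 and Fxyd3 were at least 2-fold higher in cluster 4 and Slc6a6, Mat2b, Gcsh, Atp1b3 and Mef2a lower. Between clusters 3 and 1, Slc6a9, Shmt2, Nme3, Fxyd4, Atp6v1a and Atp6v1b2 were higher in cluster 3 and Ak6, Ak7 and Ak9 lower. Between clusters 5 and 0, Slc16a12, Nme5 and the pump or pump subunit genes Atp1b1, Fxyd4, Atp2a2, Atp2b1 and Atp2b4 were among those higher in cluster 5. Oat, Nme2, Trp53 and Mef2a were lower in cluster 5, and all 7 smooth muscle markers were higher.

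The genes whose levels ran most like each member were found by Pearson r of log2 levels over the 7 clusters, which share 2 libraries, among 4302 genes. For Gatm these were Olfml3, Dkk3 and AW551984 (r 0.987, 0.982 and 0.978), with Olfml3, a secreted matrix protein gene, at 2.90 and 2.5 in adult clusters 0 and 4, against 0.224 and 0.0827 in clusters 1 and 3. For Ckb they were Enah, a regulator gene of actin filaments, Azin1, which raises polyamine synthesis, and the metallothionein gene Mt2 (0.965, 0.959 and 0.959). Those of Gamt (Ext2, Pja2 and Pabpn1), Slc6a8 (Rsrp1, Bod1 and Ppp3ca) and Ckmt1 (Dnajb6 and Prdx5 among them) rest on few UMI of the member. Across the 406 adult cells, which share depth and library, Ckb ran with the multiciliated markers Tppp3, Ccdc153 and Fam183b (r 0.690, 0.681 and 0.664), and Gatm with, among others, Selm and Sepp1 (0.517 and 0.507). Across P4 cells the genes nearest to Ckb were Hdc, which makes histamine, Ptpn22 and Mt2 (0.408, 0.403 and 0.391), and none was a multiciliated marker.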

How the data were processed

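The authors deposited raw counts (UMI per gene and cell) for the adult and P4 libraries and a merged table, with no normalization, and tables of cluster codes, 1 number per cell, which the authors made. Seurat 2.3.4, Cell Ranger and the build mm10 are named in the submitters' processing notes; the step that used each, and the version of Cell Ranger, are not given in the sources used here. The counts were checked to be whole numbers. The members and all gene lists were chosen with earlier results of these data known.

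Each adult barcode was counted once, under the first of 2 prefixes. Counts were summed over the cells of a cluster and divided by their total (Python 3.11.15, numpy 2.4.6, scipy 1.17.1, pandas 2.3.3). Levels have exact Poisson, ratios exact conditional and shares Clopper-Pearson intervals at 95%. Folds used a pseudocount of 0.1 per 10000; for 0 counts a floor of 3 counts over the group was used. Measured means a UMI in at least 10% of cells on either side, and a call is a 2-fold difference. With 1 library per age no p-value was computed. Comparisons between ages used the 26897 shared genes. No doublet caller was run, and whether doublets were removed before deposit is not given in the sources used here. Background RNA was not measured.

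Named genes are the 5 members, measured genes of the lists at least 2-fold apart in a comparison, counted for every list and with values for the main comparisons, the 3 genes most like each member over clusters (at least 100 UMI, without ribosomal protein, mitochondrial, Gm and Rik genes), and the 3 most like it across cells where a member was in at least 20% of cells and r was at least 0.3. Wt1, the gene most opposed to Ckb at P4, and the Foxj1 split were chosen after their values were seen. A few genes that the rule names are not reported here. The computations were tested on simulated data. Alternatives were a mean over cells, a pseudocount of 0.5, thinning to 1000 UMI (84 shallower adult cells and 0 P4 cells left out), other cell and gene filters, the other prefix, other totals and the merged table.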

Additional observations from a re-analysis of the deposited data

How the results depend on the processing

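Of 270 alternative values of the members, 239 moved by less than the counting error, 28 moved by more and 3 folds of at least 2 changed sign, all 3 for Ckb. The 239 include every value of Gamt and Slc6a8 in cluster 4 over 0, where 0 UMI in cluster 4 left the counting error unbounded. They also include values of few UMI with wide errors, such as Ckb in cluster 4 over 0 (0.27), which was −1.88 when thinned. The 239 therefore do not measure stability for members with few UMI. The log2 fold of Ckb in cluster 5 over 0 (3.30) was −1.92 without cells with 2 or more non-epithelial markers and −1.87 without cells with 10 or more smooth muscle UMI, both with 0 UMI in cluster 5 and so set by the pseudocount; in the adult over P4 (2.55) it was −3.14 as adult clusters 0 and 4 over P4 cluster 1. With a pseudocount of 0.5, Ckb was −4.41 (0 and 4 over 1 and 3), 1.69 (P4 1 over 0) and 2.27 (adult over P4), and Gatm 3.20 (0 and 4 over 1 and 3) and 2.69 (adult over P4). Thinned to 1000 UMI, Ckb was 3.44 (P4 1 over 0) and 2.86 (adult over P4), Gatm 0.28 (4 over 0), −3.85 (5 over 0), 5.30 (0 and 4 over 1 and 3) and 4.79 (adult over P4), Gamt 2.06 (P4 1 over 0) and Ckmt1 1.34 (0 and 4 over 1 and 3, 2 UMI and 0 UMI). Without cells with 2 or more non-epithelial markers, which left 5 cells in each P4 cluster, Ckb was 1.08 (P4 1 over 0, 3 UMI and 1 UMI) and 2.11 (adult over P4), Gatm 0.03 (4 over 0), −6.09 (5 over 0), 6.09 (0 and 4 over 1 and 3) and 4.95 (adult over P4), the last 3 with 0 UMI on 1 side, and Gamt 3.03 (P4 1 over 0) and −2.23 (adult over P4). As a mean over cells, Ckb was −0.46 (3 over 1) and 2.32 (5 over 0) and Gatm 4.95 (0 and 4 over 1 and 3). Gatm was also 4.61 without the deepest 5% of cells and, in an alternative added after the data were seen, 5.57 without cells with markers of the other class or smooth muscle (both 0 and 4 over 1 and 3), −4.84 without cells with smooth muscle UMI (5 over 0), and 5.26 as adult clusters 0 and 4 over P4 cluster 1.

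The number of genes at least 2-fold apart depended on the settings. With a pseudocount of 0.5 it was 925 (main 1830, 0 and 4 over 1 and 3), 370 (1333, 4 over 0), 326 (1138, 3 over 1), 266 (1352, 5 over 0), 36 (243, P4 1 over 0) and 593 (1591, adult over P4). With a filter of 25% of cells it was 861, 384, 336, 314, 110 and 829 in the same order. With no filter it was 3490 (4 over 0), 2358 (3 over 1) and 2403 (5 over 0). Thinned, it was 949 (0 and 4 over 1 and 3), 702 (5 over 0) and 721 (adult over P4). Without cells with non-epithelial markers it was 4468 (P4 1 over 0) and 3175 (adult over P4), and it was 2696 with the merged table (adult over P4). The causes were not tested. The direction of Ckb and Gatm between the adult classes held in all 10 alternatives each (−5.73 to −4.41 and 3.20 to 6.09). No paired analysis was possible because each age has 1 library. Gamt, Slc6a8 and Ckmt1 are limited by depth: with 10, 36 and 24 adult UMI, only large differences could be seen.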

Other observations

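The merged table gives the adult cells other cluster numbers, and there most cells of clusters 0 and 4 fell into merged clusters 2 and 4. Merged cluster 2 holds 98 adult cells, of which 79 were in cluster 0, 6 in cluster 4, 12 in cluster 5 and 1 in cluster 1. Merged cluster 4 holds 85, of which 49 were in cluster 0, 24 in cluster 4, 11 in cluster 5 and 1 has no cluster number in the adult table. The levels include the cells of cluster 5. Gatm stood at 6.63 (5.97 to 7.34) in merged cluster 2 and 7.14 (5.67 to 8.88) in merged cluster 4, so it did not differ beyond counting error between them. Wt1 was 3.54 in merged cluster 2 and 1.5 in merged cluster 4, and Ovgp1, the oviduct glycoprotein gene, 64.3 and 129.4. Ckb was 16.6 in merged cluster 0 (197 adult cells, Foxj1 8.49) and 16.7 in merged cluster 6 (21 adult cells, Foxj1 5.76). The 14 P4 cells placed in merged cluster 0 with the adult multiciliated-like cells had Foxj1 at 6.67 and Ckb at 0.928 (11 UMI), and the 225 P4 cells of merged cluster 1 had Ckb at 1.22.

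The share of UMI held by the richest cells depends on how many UMI a gene has, so Ckb and Gatm were not compared in it. The tenth of adult multiciliated-like cells with the most Ckb UMI (22 of 220) held 34.4% of them, and the top cell 2.86%. The tenth of secretory-like cells with the most Gatm UMI (17 of 161) held 48.3% of them, and the top cell 8.28%. The 2 cells with the most Gatm, both in cluster 0, had 36 and 32 UMI, against 14 in the next.

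Slc16a12, a creatine exporter gene, had 4 adult UMI, of which 3 lay in cluster 5, and 18 P4 UMI, at 0.0453 in P4 cluster 1 and 0.103 in P4 cluster 0.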
